A study of Mus musculus with 4 samples.

Results

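Keratin-associated protein genes were taken as all rows of the gene table whose symbol begins with Krtap and a number. This gave 54 of the 24441 rows, with 26 subfamily numbers. Skin RNA had been sequenced from female C57BL/6 mice, 8 weeks old by the labels, in 2 libraries of GSDMD-/- mice (KO) and 2 libraries of wild-type mice (WT). GSDMD encodes gasdermin D, the protein that forms membrane pores in pyroptosis, a lytic form of cell death. All 4 libraries came from skin exposed to bleomycin (BLM), an antibiotic that breaks DNA and is injected to model scleroderma. BLM was used at 2 U/ml in doses of 100 microlitres, placed under the skin of the back on alternate days until day 28. The KO mice were made by injecting Cas9 mRNA and a guide RNA into C57BL/6 zygotes and were bought from a company, and the number of founders is not given in the sources used here. Saline-treated skin was not analysed here, so every value below is a level in BLM-treated skin. The labels name no litter or batch, and p-values therefore measure only the spread between these samples, which may be technical.

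Keratin-associated proteins fill the space between the keratin filaments of the hair cortex and cuticle, where disulfide bonds between their cysteines and those of the hair keratins harden the fibre. They fall into high sulfur, ultra-high sulfur and high glycine-tyrosine proteins, and most are encoded by small genes without introns that lie in clusters. Their transcripts are known from the differentiating shaft cells of growing (anagen) hair follicles. By the translated coding sequences of the mm9 genome, 14 members were high glycine-tyrosine (glycine plus tyrosine at least 35% of residues), 17 were ultra-high sulfur (cysteine above 30%), 20 were high sulfur (all others) and 3 passed both thresholds. The coding sequence with the highest level of each class is shown to make the composition visible. Krtap8-1 (chr16:89487967-89488152, minus strand) is high glycine-tyrosine, and the codons of glycine and tyrosine are in capitals. In Krtap17-1 (chr11:99854954-99855253, minus strand, the first 300 bases), ultra-high sulfur, and Krtap7-1 (chr16:89508244-89508507, minus strand), high sulfur by these thresholds, the capitals mark the codons of cysteine.
Krtap8-1: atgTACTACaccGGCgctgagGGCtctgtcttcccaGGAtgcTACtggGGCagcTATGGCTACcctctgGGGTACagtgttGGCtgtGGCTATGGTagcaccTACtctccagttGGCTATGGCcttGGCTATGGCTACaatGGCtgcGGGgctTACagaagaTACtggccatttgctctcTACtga
Krtap17-1: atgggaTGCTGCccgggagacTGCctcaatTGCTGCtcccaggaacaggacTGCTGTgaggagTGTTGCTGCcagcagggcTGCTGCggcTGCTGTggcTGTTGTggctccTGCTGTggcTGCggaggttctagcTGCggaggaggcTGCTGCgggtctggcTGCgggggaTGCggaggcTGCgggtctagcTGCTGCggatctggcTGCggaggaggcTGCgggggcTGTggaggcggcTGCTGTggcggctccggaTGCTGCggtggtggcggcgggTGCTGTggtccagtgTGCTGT
Krtap7-1: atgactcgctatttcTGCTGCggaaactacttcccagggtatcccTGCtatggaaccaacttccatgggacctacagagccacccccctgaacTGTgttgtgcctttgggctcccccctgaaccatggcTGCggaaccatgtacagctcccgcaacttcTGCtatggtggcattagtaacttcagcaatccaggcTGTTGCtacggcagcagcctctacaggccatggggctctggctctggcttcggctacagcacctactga
In Krtap8-1, glycine and tyrosine made up 47.5% of 61 residues and cysteine 4.92%. Krtap17-1 held 35.8% cysteine in 109 residues, and its 34.9% of glycine plus tyrosine lay just under the other threshold. Krtap7-1 had 29.9% glycine plus tyrosine and 9.20% cysteine in 87 residues, so the thresholds placed it among the high sulfur proteins.

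The values are FPKM, fragments divided by transcript length and library depth, and a log2 fold change is a difference of log2(FPKM + 1), which understates the change of low genes. The low values of single-exon genes rise in even steps, and from these steps the 4 libraries were estimated to hold between 13990000 and 19320000 fragments. The floor of 3 fragments on a transcript of 1 kb lay between 0.213 and 0.288 FPKM. The knocked-out gene, Gsdmd (chromosome 15 of mm9, 75692769 to 75697834), stood at 14.0 and 18.2 FPKM in the WT pair of libraries against 3.53 and 2.26 FPKM in the KO pair (log2 fold change -2.14 ± 0.29, standard error; Benjamini-Hochberg adjusted p = 0.248 in limma).

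Krtap transcripts were abundant in KO replicate 1 and scarce in the other libraries. The 54 members summed to 11.4 and 6.15 FPKM in WT replicates 1 and 2, to 420.3 FPKM in KO replicate 1 and to 12.4 FPKM in KO replicate 2. KO replicate 1 thus held 37.0 and 68.3 times the sums of WT replicates 1 and 2 and 33.9 times the sum of KO replicate 2. Krtap3-2 and Krtap3-3, described below with their subfamily, made up much of the WT sums. Without them WT replicate 1 summed to 6.01 FPKM, WT replicate 2 to 0.7495 FPKM, KO replicate 1 to 399.6 FPKM and KO replicate 2 to 10.7 FPKM, so that KO replicate 1 held 66.5, 533.1 and 37.2 times the sums of WT replicate 1, WT replicate 2 and KO replicate 2. As a share of all FPKM, the family took 0.0937% of KO replicate 1 and between 0.00133% and 0.00275% of each other library. With upper-quartile scaling the sum of all members in WT replicate 1 was slightly above that of KO replicate 2. In bulk skin, fewer shaft-forming cells and less RNA per cell cannot be told apart.
Of the members, 51 were above 0 in a library and 49 had their highest value in KO replicate 1, against 21.8% of all 19663 genes above 0. In KO replicate 1, 44 members reached 1 FPKM, while 1, 2 and 5 did in WT replicate 1, WT replicate 2 and KO replicate 2. Of the 44 members with 1 FPKM in a library, 40 were at least 10 times as high in KO replicate 1 as in any other library, and 0.66% of all genes with 1 FPKM in a library were. The genotypes did not separate in the same way: both KO libraries were above both WT libraries in 15 of the 51 members above 0 and below them in 0, against 28.8% and 19.2% of all genes above 0. KO replicate 2 by itself was above both WT libraries in 16 of these 51 members and below both in 6, against 42.3% and 35.9% of all genes above 0. Listed at 0 in KO replicate 2 and above 0 in WT replicate 1, the more deeply sequenced of the pair, were 17 members, and the reverse held for 5.
The 5 members without their highest value in KO replicate 1 were all near or at 0. Krtap13, Krtap20-2 and Krtap9-5 were listed at 0 in every library. Krtap5-3 had 0.0512 FPKM in KO replicate 2 and was listed at 0 elsewhere, and Krtap27-1 had 0.188 and 0.203 FPKM in KO replicates 1 and 2, which corresponds to 1 fragment each.

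**Figure D1:**
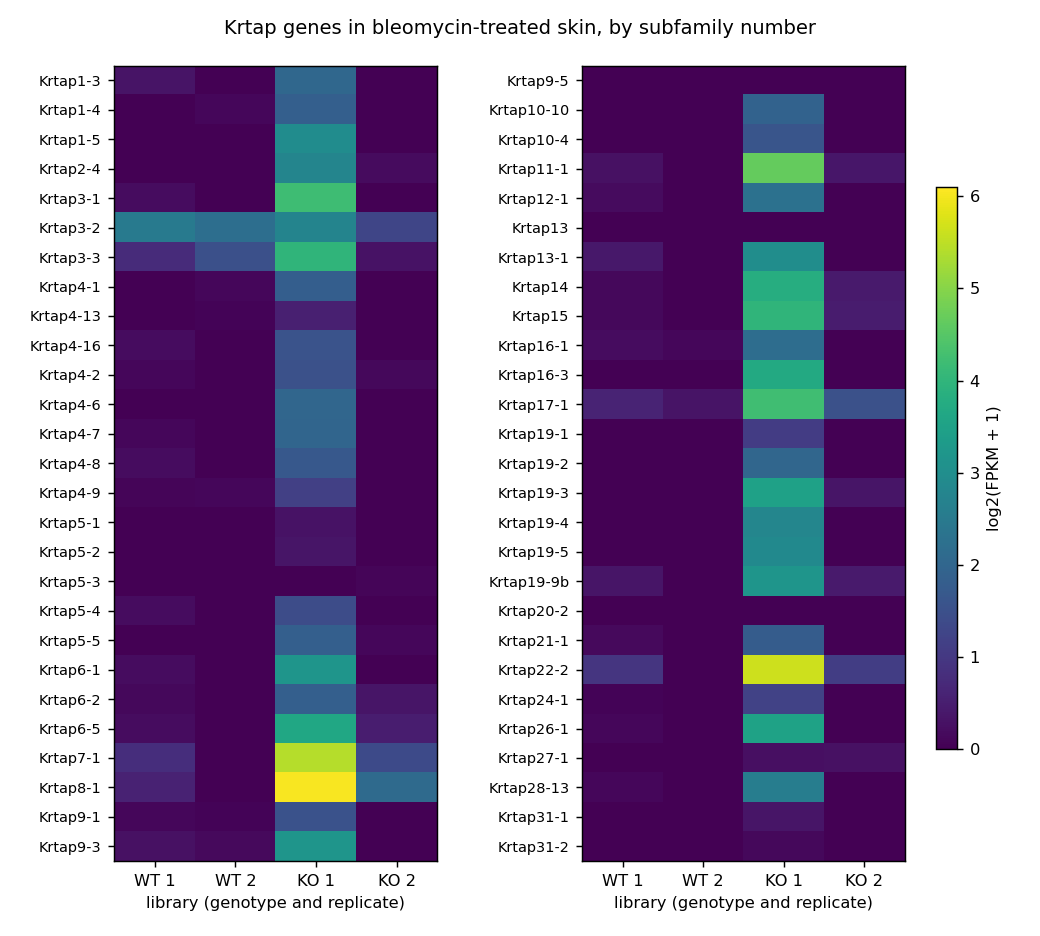
Level of each of the 54 Krtap genes (rows, in order of subfamily number) in the 4 libraries (columns), as log2(FPKM + 1) on a colour scale from 0 to the highest member. KO replicate 1 holds the highest value of 49 members, whereas Krtap3-2 is above 1 FPKM in every library.

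The numbers of fragments behind these values were small outside KO replicate 1. Over the 52 members of at least 450 bases, an estimated 124.5 and 67.5 fragments lay in WT replicates 1 and 2, 2695 in KO replicate 1 and 73.2 in KO replicate 2. Without Krtap3-2 and Krtap3-3 these numbers were 49.5, 8.57, 2521 and 56.2, so the remaining 50 members had the fewest fragments in WT replicate 2. The median member had 29.5 fragments in KO replicate 1, and the highest, Krtap8-1, had 314.8. Of the 55 member values above 0 and under 5.5 fragments, 50 (90.9%) were whole within 0.1 fragments.
Where a member was above 0 in both libraries, KO replicate 1 was a median of 33.3 times WT replicate 1 over 28 members, Krtap3-2 and Krtap3-3 left out. The lowest ratio was 11.9 for Krtap5-4, with 19 and 2 fragments (95% exact counting interval 2.88 to 106). Krtap15 had the highest, 164, with 131 fragments against 1 (interval 28.9 to 6520). Against KO replicate 2 the median ratio was 28.3 over 15 members. The lowest was 0.927 for Krtap27-1, 1 fragment against 1 (interval 0.0118 to 72.7), and the highest was 84.4 for Krtap11-1, with 273 and 3 fragments (interval 28.6 to 412). These intervals cover counting error only, and those of the lowest and the highest ratio to WT replicate 1 overlap. Over the 54 members, Spearman's rho of the FPKM in KO replicate 1 was 0.60 with WT replicate 1, 0.52 with KO replicate 2 and 0.049 with WT replicate 2. The members share these libraries and a similar depth, so the correlations are descriptions.

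**Figure D2:**
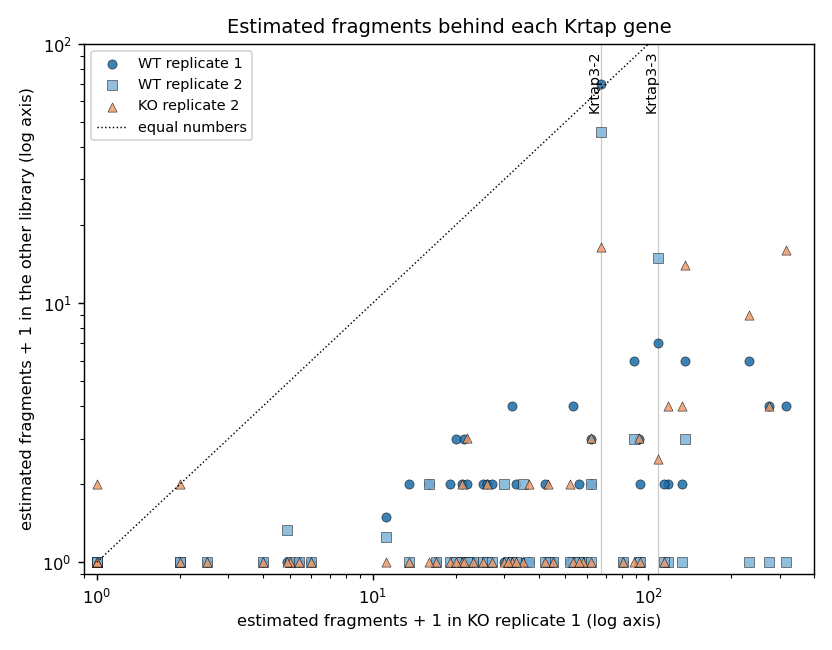
Estimated fragments + 1 of each Krtap gene in WT replicate 1, WT replicate 2 and KO replicate 2 (vertical axis) against KO replicate 1 (horizontal axis), both on log axes, with a dotted line at equal numbers. Nearly all points lie far below the line, and only Krtap3-2, with 69 fragments in WT replicate 1 against 66.6 in KO replicate 1, lies near it at a high level.

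By FPKM, the high glycine-tyrosine members had the highest summed level in KO replicate 1, 184.7 FPKM or 44.0% of the family, with a median of 7.25 FPKM over 14 members. Of this sum, 48.7 FPKM came from the short transcript of Krtap22-2, and the classes were not summed by fragments. Values are given from here on in the order WT replicate 1, WT replicate 2, KO replicate 1 and KO replicate 2. Krtap8-1 had 0.503, 0, 64.5 and 3.33 FPKM, the highest level of any member. Krtap22-2 had 0.931, 0, 48.7 and 1.15 FPKM. In both genes KO replicate 2 was far below KO replicate 1. For Krtap22-2 the values of WT replicate 1 and KO replicate 2 correspond to an estimated 2 fragments each, so the order of these libraries is not a difference in fragments. Krtap6-5 (0.152, 0, 11.4 and 0.403 FPKM) led its subfamily, whose members are known from the cortex of hair and wool. The 6 members of subfamily 19 ran from 1.12 to 10.3 FPKM in KO replicate 1, and the highest of them, Krtap19-3, had 0, 0, 10.3 and 0.265 FPKM. Krtap16-3 was listed at 0 in WT and in KO replicate 2 and had 12.0 FPKM in KO replicate 1. Krtap21-1 reached 2.43 FPKM there and 0.108 FPKM in WT replicate 1, and was listed at 0 in WT replicate 2 and KO replicate 2. The whole class was listed at 0 throughout WT replicate 2, whereas WT replicate 1 held 2.23 FPKM and KO replicate 2 held 5.76 FPKM.

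The 20 high sulfur members came close to that level, with 182.0 FPKM or 43.3% of the family in KO replicate 1 and a median of 6.32 FPKM. Krtap7-1, at 29.9% glycine plus tyrosine, is counted in this sum, so the closeness of the classes depends on the threshold of 35%. Krtap7-1 had 0.738, 0, 41.8 and 1.57 FPKM and Krtap11-1 had 0.210, 0, 24.1 and 0.285 FPKM. Ranked by fragments, Krtap11-1 was second in the family with 273.2 and Krtap22-2, whose transcript has only 380 bases, had 91.8, so the order by FPKM and the order by fragments differ. Krtap14 (0.0885, 0, 13.0 and 0.358 FPKM) and Krtap15 (0.0915, 0, 15.0 and 0.370 FPKM), which are neighbours on chromosome 16, had similar values in every library. Most other subfamilies led by a high sulfur member stood lower. Krtap26-1 and Krtap9-3 had 10.5 and 8.05 FPKM in KO replicate 1, Krtap13-1 and Krtap1-5 had 6.98 and 6.77 FPKM, and Krtap2-4, Krtap24-1 and Krtap31-1 had 5.87, 1.31 and 0.278 FPKM. All of these were at most 0.324 FPKM in any other library.

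Ultra-high sulfur members were lower. Their 17 genes summed to 48.2 FPKM in KO replicate 1, 11.5% of the family, with a median of 2.05 FPKM, and Krtap17-1 alone accounted for 17.7 FPKM. Krtap17-1 had 0.525, 0.241, 17.7 and 1.84 FPKM, the only member of its class with 10 FPKM in a library. The 8 members of subfamily 4, the largest among the 26, all belong here and ran from 0.459 to 3.01 FPKM in KO replicate 1, with 0.0731, 0, 2.94 and 0 FPKM for Krtap4-7, the member of this subfamily with the highest mean over the 4 libraries. Subfamilies 5, 10 and 12 are known in human hair from the cuticle. In KO replicate 1 their leading members stood at 2.59 FPKM (Krtap5-5), 2.78 FPKM (Krtap10-10) and 3.84 FPKM (Krtap12-1, high sulfur by its composition). Krtap5-5 was also at 0.0777 FPKM in KO replicate 2, 1 fragment, and listed at 0 in WT. Krtap10-10 was listed at 0 in every other library. Among the 3 members past both thresholds, Krtap28-13 had 0.0717, 0, 4.96 and 0 FPKM. No test was made between classes, because members of a class share sequence and the same libraries.

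**Figure D3:**
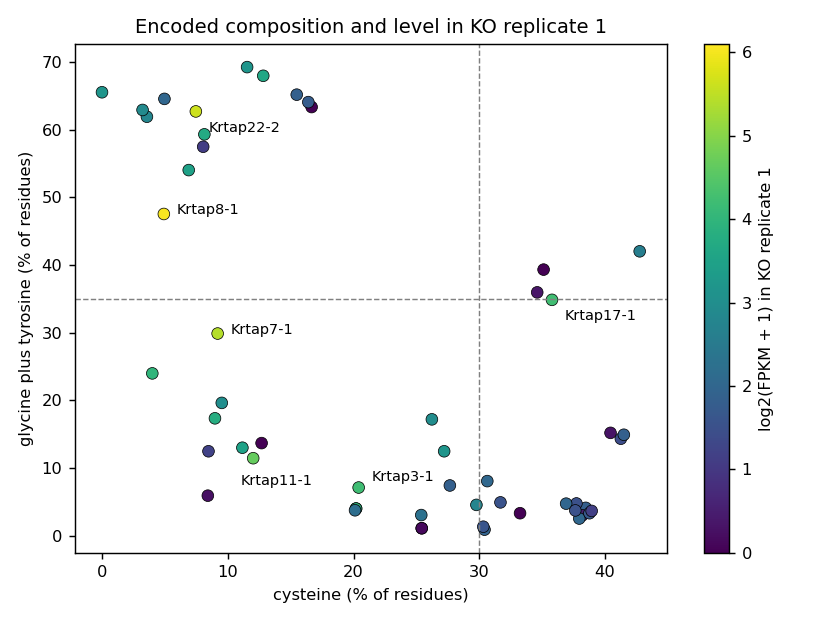
Cysteine (horizontal axis, % of encoded residues) and glycine plus tyrosine (vertical axis, % of encoded residues) of each Krtap gene, coloured by log2(FPKM + 1) in KO replicate 1, with dashed lines at 30% and 35%. Krtap8-1 and Krtap22-2 lie in the glycine-tyrosine group, and the ultra-high sulfur group at the lower right stays below 4 FPKM except for Krtap17-1 near both lines.

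Of the 4 members with 1 FPKM in a library that stayed under 10 times, Krtap3-2 and Krtap3-3 belong to subfamily 3, and the others were Krtap6-2 and Krtap17-1. Krtap3-2 had 4.69, 3.61, 5.69 and 1.43 FPKM, so it was expressed at a similar level in WT and KO replicate 1 and was lowest in KO replicate 2. Krtap3-3 had 0.673, 1.79, 15.0 and 0.226 FPKM and Krtap3-1 had 0.155, 0, 17.5 and 0 FPKM. Krtap3-2 took 69, 44.9, 66.6 and 15.5 estimated fragments, more than the rest of the family together in WT replicate 1. For Krtap3-2, KO replicate 1 was 1.21 times WT replicate 1 (interval 0.854 to 1.72) and 1.58 times WT replicate 2 (interval 1.06 to 2.35). The coding sequences of Krtap3-2 and Krtap3-3 are identical over 300 bases, and each is 82% identical to that of Krtap3-1. Fragments inside the coding sequence can therefore not be assigned to either gene, and the division between them depends on the authors' counting. Outside it they differ. Of the windows of 100 bases in their loci, 25.1% and 37.0% also occur elsewhere near Krtap genes. The 120 bases before the start of each gene are shown because they differ between these 3 members, with the sequence TATAAA in capitals (Krtap3-1 at chr11:99427945-99428064, Krtap3-2 at chr11:99418168-99418287 and Krtap3-3 at chr11:99412178-99412297, all mm9, minus strand).
Krtap3-1: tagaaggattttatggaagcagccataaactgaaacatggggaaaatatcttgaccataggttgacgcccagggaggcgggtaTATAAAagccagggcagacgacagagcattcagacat
Krtap3-2: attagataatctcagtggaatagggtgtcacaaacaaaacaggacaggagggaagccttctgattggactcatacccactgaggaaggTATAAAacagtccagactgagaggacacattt
Krtap3-3: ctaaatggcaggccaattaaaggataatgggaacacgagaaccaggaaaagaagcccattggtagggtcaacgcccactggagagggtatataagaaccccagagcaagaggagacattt
These stretches were between 53.5% and 57.0% identical in pairwise alignment. TATAAA began 37 bases before the start in Krtap3-1 and 32 bases before it in Krtap3-2. These exact letters were not in this stretch of Krtap3-3, which holds the similar tatataag. Only exact matches were searched for, so near variants such as this were not counted.

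Upstream windows of the whole family were searched in the same way, from 250 bases before to 50 bases after the start of each locus. TATAAA, the core of the TATA box, occurred on either strand in 45 of 54 members (83.3%) and in 12.9% of the windows of all 20161 genes. On the gene's own strand and 45 to 18 bases before the start, it was found in 33 members (61.1%) and 2.71% of all genes. TTTAT, which overlaps TATAAA on the other strand, occurred in 88.9% of members and 36.3% of all windows. Other short words differed less: CAAAG, as in sites of Lef1, was in 66.7% and 50.7%, and CCAAT in 40.7% and 38.3%, while ACGC was in 25.9% and 63.4%. The windows of the members had a median of 41.5% G plus C, against 56.7% over all genes, and a match of these letters is a description and not a site. The 2 members with the most fragments in KO replicate 1, both on chromosome 16, are printed as examples, again with TATAAA in capitals (Krtap8-1 at chr16:89488198-89488317 and Krtap11-1 at chr16:89571429-89571548, minus strand).
Krtap8-1: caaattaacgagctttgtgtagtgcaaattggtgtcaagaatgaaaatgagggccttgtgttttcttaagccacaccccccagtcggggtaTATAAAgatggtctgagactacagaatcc
Krtap11-1: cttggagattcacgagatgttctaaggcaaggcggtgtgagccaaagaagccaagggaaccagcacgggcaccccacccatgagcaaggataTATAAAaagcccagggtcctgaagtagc
The motif lies 29 and 28 bases before the start in these genes.

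By position, 23 members lie on chromosome 16 between 88610954 and 89571428 of mm9 and 22 on chromosome 11 between 99411446 and 99855308. The chromosome 16 cluster gave 297.5 FPKM, 70.8% of the family in KO replicate 1, with a median of 8.05 FPKM per member. The chromosome 11 cluster gave 104.3 FPKM (24.8%) with a median of 2.76 FPKM. Of the rest, 5 members lie on chromosome 7 (4.78 FPKM together), 3 on chromosome 10 (8.67 FPKM) and 1 on chromosome 1. WT replicate 2 had 0 FPKM over the chromosome 16 cluster and 6.15 FPKM over the chromosome 11 cluster, of which Krtap3-2 and Krtap3-3 made up nearly all. On chromosome 16 the 3 members nearest the end of the cluster, Krtap8-1, Krtap7-1 and Krtap11-1, were among the 4 highest of the family in KO replicate 1. On chromosome 11 the members above 5 FPKM in that library lay between Krtap3-3 and Krtap2-4 at the start of the cluster, apart from Krtap17-1 at its other end. Near-identical copies limit single values. In 24 members some window of 100 bases also occurs elsewhere near Krtap genes, in 15 of them at least 10% of the windows do, and in 30 members none does. The rows of Krtap10-10, Krtap12-1 and Krtap10-4 lie inside the locus of Tspear, which had 0, 0, 0.182 and 0.0327 FPKM, and the row of Krtap4-13 spans 2 predicted genes.

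**Figure D4:**
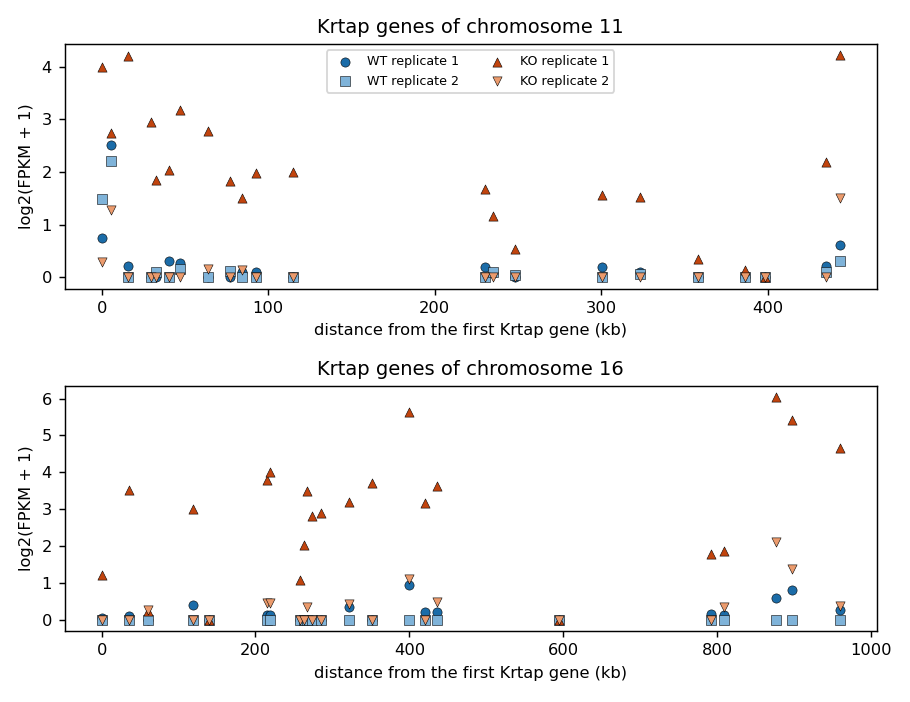
Level of each Krtap gene (vertical axis, log2(FPKM + 1)) against its distance from the first Krtap gene of the cluster (horizontal axis, kb) on chromosome 11 and chromosome 16, with 1 symbol per library. For nearly all members KO replicate 1 stands above the other libraries along both clusters, and the only high WT values are those of Krtap3-3 and Krtap3-2 at the left end of chromosome 11.

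The comparison of KO with WT asked whether loss of gasdermin D changed these genes in BLM-treated skin. Across the 13027 genes with at least 1 FPKM in 2 or more libraries, 0 (0%) passed an adjusted p under 0.05 with an absolute log2 fold change above 1, and 6 members were among the genes tested. Of these 6, 4 passed the filter only through the KO libraries, and 48 members were too low to be tested. Without adjustment, limma gave a p under 0.05 and a log2 fold change above 1 for 2 members, Krtap8-1 and Krtap17-1, against 6.16% of all genes in this direction, and for 0 members in the other direction, against 4.14%. Both are among the 4 that passed the filter only through the KO libraries, so nothing is read from this count. The log2 fold change of Krtap8-1 was 3.78 ± 1.26 (standard error), with an unadjusted p of 0.0294 and an adjusted p of 0.264 in limma. For Krtap17-1, with 0.383 ± 0.201 FPKM in WT and 9.75 ± 11.2 FPKM in KO (SD, n = 2 each), it was 2.40 ± 0.89 (adjusted p = 0.280 in limma). Krtap7-1 and Krtap22-2 had log2 fold changes of 2.99 ± 1.31 and 2.89 ± 1.47, with adjusted p-values of 0.320 and 0.358 in limma. That both KO libraries lay above both WT libraries in these 4 genes is fixed by their passing only through KO, and the SD between the KO libraries exceeded the KO mean in each.
Krtap3-3 gave 1.04 ± 1.20 on the same scale (standard error; adjusted p = 0.649 in limma), and Krtap3-2 gave -0.34 ± 0.52 (adjusted p = 0.728 in limma), with overlapping groups in both. A fit without 1 KO library leaves a lone KO library that is assumed to vary like the WT pair. Without KO replicate 2 Krtap3-3 was called at 2.89 ± 0.39 (adjusted p = 0.0396 in limma), while 0.244% of all genes were. With KO replicate 2 left out, Krtap3-2 moved to 0.39, and with KO replicate 1 left out to -1.08 (adjusted p = 0.0692 in limma).
Over all 54 members the median difference of log2(FPKM + 1) between KO and WT was 0.97, against 0 over all genes. Leaving out KO replicate 2 gave 1.92, and leaving out KO replicate 1 gave 0, where 16 members were higher and 22 lower in KO than in WT. For any single member, 2 libraries against 2 allow no exact two-sided permutation p below 0.333.

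Other hair shaft genes had their highest values in the same library. All 15 hair shaft keratins, which form the filaments that these proteins embed, were highest in KO replicate 1, and they summed to 2.05, 1.61, 96.3 and 10 FPKM. The acidic keratins stood in KO replicate 1 at 15.7 FPKM (Krt35), 10.1 FPKM (Krt33a), 8.96 FPKM (Krt31), 5.99 FPKM (Krt32), 5.11 FPKM (Krt33b), 4.68 FPKM (Krt34), 0.873 FPKM (Krt40), 0.556 FPKM (Krt39) and 0.518 FPKM (Krt36). The basic keratins stood at 16.7 FPKM (Krt85), 12.9 FPKM (Krt83), 5.49 FPKM (Krt81), 4.995 FPKM (Krt86), 2.29 FPKM (Krt84) and 1.37 FPKM (Krt82). Both KO libraries exceeded both WT libraries in 11 of the 15 keratins, against 28.8% of all genes above 0. In KO replicate 2 the keratin sum was above both WT sums. The Krtap genes summed to 5.55, 3.82, 4.37 and 1.24 times the keratins, in the same order of libraries, and to 2.93, 0.465, 4.15 and 1.07 times without Krtap3-2 and Krtap3-3. The lowest ratio was thus in KO replicate 2 with these genes and in WT replicate 2 without them, and differences of the ratio between libraries were not tested. Of the keratins 3 were tested (Krt32, Krt35 and Krt85), each of which passed the filter only through the KO libraries, and 0 were called by limma after adjustment.
The 6 genes listed as other shaft proteins were likewise highest in KO replicate 1, and whether their RNA came from the shaft was not tested. S100a3, a calcium-binding protein of the cuticle, had 3.05, 2.00, 131 and 5.18 FPKM. Padi3, a deiminase that modifies shaft proteins, had 0.166, 0.113, 5 and 0.483 FPKM, and Gprc5d had 0.346, 0, 4.24 and 0 FPKM. Psors1c2 (77.1, 20.6, 111 and 4.51 FPKM) and Lrrc15 (1.01, 0.608, 5.37 and 0.170 FPKM) were lowest in KO replicate 2, and the desmosomal cadherin Dsg4 stayed at or under 0.165 FPKM.

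Regulators of the shaft differed less between the KO libraries. Of 8 such genes, 7 had both KO libraries above both WT libraries, against 28.8% of all genes above 0, and 6 were highest in KO replicate 1, against 21.8%. Hoxc13, a homeobox factor that controls hair keratin and Krtap genes, had 1.08, 0.350, 6.37 and 3.06 FPKM (log2 fold change 1.71, standard error 0.40). KO replicate 2 thus held more Hoxc13 than either WT library and less than KO replicate 1. Lef1, a factor of Wnt signalling, had 0.404, 0.0620, 2.73 and 0.572 FPKM, and Msx2 had 0.574, 0.566, 4.63 and 1.28 FPKM. The forkhead factor Foxn1 had 1.00, 0.488, 2.74 and 1.69 FPKM, whereas Foxq1 was higher in KO replicate 2 (2.04, 1.10, 5.31 and 8.00 FPKM). Ovol1 had 10.8, 6.26, 29.4 and 21.1 FPKM and Dlx3, the exception to the order of the groups, had 3.77, 1.54, 15.5 and 2.22 FPKM. Trps1, although among the 7, moved little, with values between 1.35 and 1.49 FPKM in every library. The tested regulators numbered 7 and 0 were called by limma after adjustment.

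Other cells of the follicle and skin moved along with the Krtap genes in part. Inner root sheath genes were highest in KO replicate 1 in 9 of 9 cases, against 21.8% of all genes above 0, and summed to 8.45, 0.669, 321 and 6.61 FPKM, with Krt71 at 2.77, 0.0662, 86.4 and 1.04 FPKM and Krt25 at 2.43, 0, 84.1 and 0 FPKM. Pigment cell genes were highest there in 6 of 7 cases, with sums of 8.97, 5.27, 79.4 and 6.31 FPKM, and Mlana and Dct each reached 28.4 FPKM in KO replicate 1. The 6 genes of the outer root sheath and bulge were instead high in both KO libraries, with sums of 497, 325, 1212 and 1251 FPKM. The 7 proliferation genes were above both WT libraries in both KO libraries, as were 28.8% of all genes above 0, and were each highest in KO replicate 2 (sums of 20.4, 9.90, 34.97 and 61.3 FPKM). Epidermal genes, of which 6 of 7 were found, summed to 4949, 3544, 10660 and 5115 FPKM, with Krt14 of the basal layer at 1293, 1214, 2689 and 2735 FPKM. They did not move as one. Loricrin (Lor), a protein of the cornified envelope, had 1450, 809.6, 2844 and 155 FPKM, and like Krt1 and Krt10, keratins of the differentiating layers, it was lowest in KO replicate 2. Both KO libraries were above both WT libraries in 2 of the 6 epidermal genes, Krt5 and Krt14.
Fibroblast genes were highest in KO replicate 1 in 6 of 6 cases and lowest in KO replicate 2, with sums of 269, 180, 422 and 24.9 FPKM. Endothelial genes (50.4, 71.8, 69.8 and 6.19 FPKM), macrophage genes (165, 200.4, 76.0 and 11.8 FPKM) and adipocyte genes (1637, 4331, 2021 and 191 FPKM) were also lowest in KO replicate 2. Sebaceous gland genes summed to 752, 2077, 775 and 2136 FPKM and skeletal muscle genes to 14150, 14390, 9031 and 7460 FPKM. No fibroblast, endothelial, macrophage, adipocyte, muscle, sebaceous or epidermal marker was listed at 0 in any library. Over all of these lists 0 genes were called by limma after adjustment. The part that cell makeup had in the Krtap values was not tested.

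**Figure D5:**
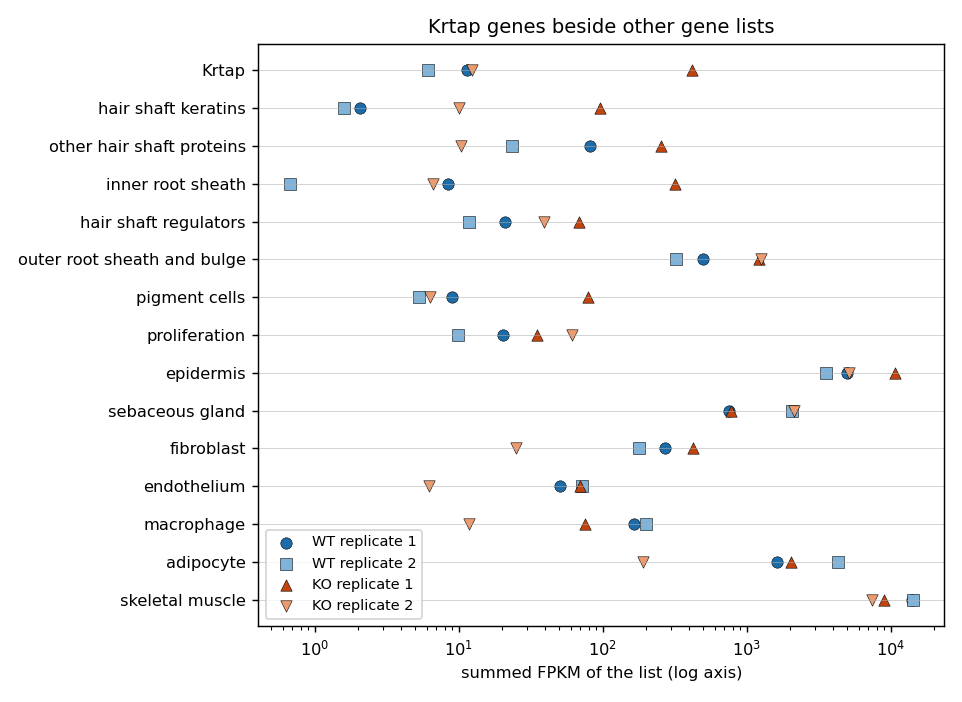
Summed FPKM (horizontal log axis) of the 54 Krtap genes and of 14 gene lists (rows) in each library, with 1 symbol per library. The Krtap, hair shaft keratin and inner root sheath sums in KO replicate 1 lie far right of the other 3 libraries, while outer root sheath and proliferation genes are high in both KO libraries and fibroblast genes are low in KO replicate 2.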

How the data were processed

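RNA of BLM-treated skin was measured in 2 KO and 2 WT libraries sequenced as paired reads of 150 bases. Per the labels the authors used HISAT2 version 2.0.1 and StringTie version 2.0.6 with the genome build mm9; the methods of the study also describe a read counter. The deposited table is named as counts, but 99.993% of its values above 0 are not whole, and the authors' values were read as FPKM, so that limma replaced a count model. Whether fragments that match several Krtap genes were shared out is not given in the sources used here, and 5 of 55 low values were not whole. Exact zeros can be failed estimates.

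Values were fitted as log2(FPKM + 1) with limma 3.58.1 (R 4.3.3) for genes that reached 1 FPKM in 2 or more libraries (genotype as the only term, mean-variance trend, Benjamini-Hochberg adjustment), and the fit was tested on simulated data. Fragments were recovered as FPKM times the transcript length, less 230 to 270 bases, divided by the worth of 1 fragment, both estimated from 1244 single-exon genes of at least 500 bases. Sequences were read from mm9 (NCBIM37) with GENCODE vM1, by pysam version 0.24.0 and Biopython version 1.88. By symbol 41 members were found there, 10 by position under another name and 2 took their strand from RefSeq and 1 from its open reading frame. Coding sequences were annotated for 43 members, and for 11 the first open reading frame of at least 150 bases was used. Tables and plots were made with Python version 3.11.15, pandas version 2.3.3 and matplotlib version 3.10.9.

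Members and gene lists were chosen with earlier results of these data known. Named are the member with the highest mean FPKM of each subfamily, all tested members, members of at least 1 FPKM whose highest value lies outside KO replicate 1 (there were 0), the genes of the hair shaft lists and Gsdmd, and for the other lists up to 2 genes with the highest mean FPKM or none; other members and the epidermal genes Krt1, Krt5 and Krt10, named for a small count or an extreme ratio, were picked with their values in view. Deviations of same-numbered libraries from their group means correlated at -0.20 across 13027 genes, no source ties the numbers to a litter or batch, and the libraries were treated as unpaired. Alternatives were 2 other pseudocounts, 2 other filters, 3 scalings, a fit without the trend, the replicate number as a block and leaving out each library.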

Additional observations from a re-analysis of the deposited data

How the results depend on the processing

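Under upper-quartile scaling and median-ratio factors the summed Krtap level of each library moved by less than 1.5 times and KO replicate 1 stayed highest, but the order of WT replicate 1 and KO replicate 2 turned with upper-quartile scaling (11.98 and 11.5 FPKM). With all 4 libraries, 0 genes and 0 members were called under every pseudocount, filter, scaling and block that was run. Counts at an unadjusted p under 0.05 (limma) also required an absolute log2 fold change above 1. By this rule the 2 members higher, beside 802 of 13027 genes, became 0, beside 674 of 19663 genes, with no filter on low values. The log2 fold changes of Krtap8-1 and Krtap17-1 stayed at 3.78 and 2.40. Their standard errors rose from 1.26 and 0.89 to 1.40 and 0.98, and why they rose was not tested. Leaving out a library gave between 0 and 1920 called genes (1920 without KO replicate 1, 31 without KO replicate 2), between 264 and 1288 genes higher and between 205 and 1600 lower at an unadjusted p (lowest without WT replicate 2, highest without KO replicate 1), between 0 and 1 called members, between 0 and 1 members higher and between 0 and 1 members lower at an unadjusted p. Only 1 member was tested without KO replicate 1 and 2 without KO replicate 2, against 6 without WT replicate 1 and 5 without WT replicate 2, and the group left with 1 library was assumed to vary like the other. The log2 fold change of Krtap3-3 was 1.04 with all libraries and 2.89 without KO replicate 2. That of Krtap3-2 was -0.34 with all libraries, -1.08 without KO replicate 1 and 0.39 without KO replicate 2. In each of these smaller fits the KO value is that of the single KO library left. Of the scalings, upper-quartile scaling moved the split of genes at an unadjusted p furthest, from 802 higher and 539 lower to 554 higher and 712 lower, with 631 and 708 under median-ratio factors and 644 and 698 under quantile normalization. Upper-quartile scaling shifted the median over tested genes from 0.11 to -0.03 log2 units. The median difference of all members was 2.06 with a pseudocount of 0.1, as its construction implies for low values, between 0.89 and 1.32 under the other settings with all libraries and between 0 and 1.92 when a library was left out.

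Deviations of same-numbered libraries correlated at -0.20. With 2 libraries in each group this value cannot decide whether same-numbered libraries share a litter or batch. With the replicate number as a block, 4 members were higher at an unadjusted p in limma in place of 2, beside 907 of all 13027 genes. These 4 members passed the filter only through the KO libraries, so nothing is read from this count. The smallest adjusted p over all genes was 0.0541 in limma. A crossed pairing, chosen after seeing the data, gave 1 member higher, beside 819 of 13027 genes, and 0 called genes.

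Depth limits the low members: outside KO replicate 1 most values rest on 1 to 3 fragments or are listed at 0.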
